A study of Mus musculus with 6 samples.

Results

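The potassium channel genes were compared between neural progenitor cells (NPCs) of the brachial level and of the tail of the mouse embryo. They were taken as every array row annotated to exactly 1 gene symbol that starts with Kcn, without the channel-interacting proteins Kcnip1 to Kcnip4 and without Kcnj8. This gave 92 rows for 85 genes, out of 41345 rows and 22180 genes with 1 symbol. The genes were grouped by subfamily from the symbol and then by the role of the encoded protein. The 4 rows that carry a potassium channel symbol together with another symbol were not used here.

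The arrays came from 3 brachial and 3 tail samples, all from E12.5 embryos by the sample labels (the methods give E12). Wild-type embryos of the study were C57BL/6. Cells of both groups were dissociated and expanded as neurospheres without serum, with the growth factors bFGF and EGF at 20 ng/ml each, and the labels name no other agent for either group. Brachial tissue was cut between the hindbrain and the forelimbs, and somite tissue was removed from the tail as far as possible, so both groups are cultured populations that may hold other cells of the dissected tissue. Whether each sample was a culture of its own is stated nowhere in the labels or methods, and the p-values below measure only the spread between these samples.

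Potassium channels let potassium leave or enter a cell and so set its resting potential and end its action potentials. Each pore is built from subunits that share a short selectivity filter. Voltage-gated subunits (Kcna, Kcnb, Kcnc, Kcnd, Kcnh and Kcnq) open on depolarization, inward rectifiers (Kcnj) and leak channels with 2 pore domains per subunit (Kcnk) act near rest, and calcium- or sodium-activated channels (Kcnma, Kcnn, Kcnt) link the pore to ions inside the cell. Kcnu1, a relative of Kcnma1 that is opened by pH and voltage, was grouped with these. Silent subunits (Kcnf, Kcng, Kcns, Kcnv) form no pore alone and modify voltage-gated partners, while the auxiliary subunits (Kcnab, Kcne, Kcnmb) change the gating or the surface level of the pores. In the nervous system neurons carry most voltage-gated types, and glial cells are known for inward rectifiers that clear potassium.

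Each value is a log2 signal of 1 array row after robust multi-array average (RMA) normalization by the authors, called the RMA value below, and values of a group are listed in the order of its replicates 1 to 3. SE is the standard error of a log2 fold change in the limma fit. The medians of the 6 arrays over all rows lay between 4.82 and 4.91. RMA brings the arrays to a like distribution of signals and comes with no detection call, so a low value may be background. The mean of 38 of the 85 potassium channel genes was under the median over all rows. The progenitor gene Sox2 was at 10.72, 10.78 and 10.77 in brachial and at 9.55, 10.64 and 10.23 in tail NPCs. All tail arrays thus lay below all brachial arrays (log2 fold change -0.61, limma adjusted p = 0.434). Its list of 8 neural progenitor genes had 0 genes called and a median log2 fold change of -0.37. At an unadjusted limma p under 0.05, 1 gene of this list, Pax6, was lower and 0 were higher. Of the 8 genes 6 had a log2 fold change below 0, and Sox9 and Notch1 had 0.054 and 0.23. Brachial replicate 1 and tail replicate 3 stood apart from the others of their group. On the first principal component over all genes, which held 54.7% of the variance, these arrays scored -3.46 and 1.54, while the other brachial arrays scored -46.3 and -47.7 and the other tail arrays 56.8 and 39.1. An exact permutation test of 3 against 3 arrays cannot go below p = 0.10 and was not run.

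Most potassium channel genes had close means in tail and brachial NPCs, and a few had means that lay further apart, in both directions. The mean signal of Kcna2, Kcnj10, Kcnd2 and Kcnk1 was at least 2-fold lower in tail NPCs, and that of Kcnc2, Kcnk2, Kcnma1 and Kcnab1 at least 2-fold higher. Each direction thus held 4 of 85 genes (4.71%), where 1.74% of all 22180 tested genes were lower and 2.35% higher by this fold. The count of lower genes depended on the arrays that stood apart, with 8 without brachial replicate 1 and 9 without tail replicate 3. In the model fitted with limma over all genes, 0 potassium channel genes passed a Benjamini-Hochberg adjusted p of 0.05 in either direction, against 0.0631% of all genes called higher and 0.0406% called lower in tail NPCs. At an unadjusted p under 0.05, 11 were lower and 5 higher (12.9% and 5.88%, where 6.39% and 5.43% of all genes were). The methods' t-test, which is named there for any 2 groups, gave 6 lower and 2 higher at this threshold and 0 after adjustment. Leaving out 1 array moved the higher genes at this threshold to 2 (without tail replicate 1 or 2), 3 (without brachial replicate 3) or 8 (without tail replicate 3), and the lower genes to 6 without tail replicate 2. None of the differences below therefore passed the limma test over all 6 arrays without a block.

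All 3 tail arrays lay below all 3 brachial arrays for 13 potassium channel genes (15.3%) and above them for 5 (5.88%). Over all tested genes these shares were 9.36% and 6.88%, and 16.2% for both directions together. The log2 fold change, tail minus brachial, was below 0 for 56 of the 85 genes (65.9%, against 55.2% of all genes), with a median of -0.074 against -0.028 over all genes. The role groups did not share 1 direction. Of 26 voltage-gated pore genes 6 lay wholly lower and 2 wholly higher in tail NPCs, and of 13 inward rectifiers 4 lay wholly lower and 0 higher. Of 13 leak channel genes 1 lay wholly lower, of 8 genes in the group of calcium- or sodium-activated channels 2 lay wholly higher (Kcnma1 and Kcnu1), and of 12 auxiliary subunits 1 lay wholly higher.

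**Figure D1:**
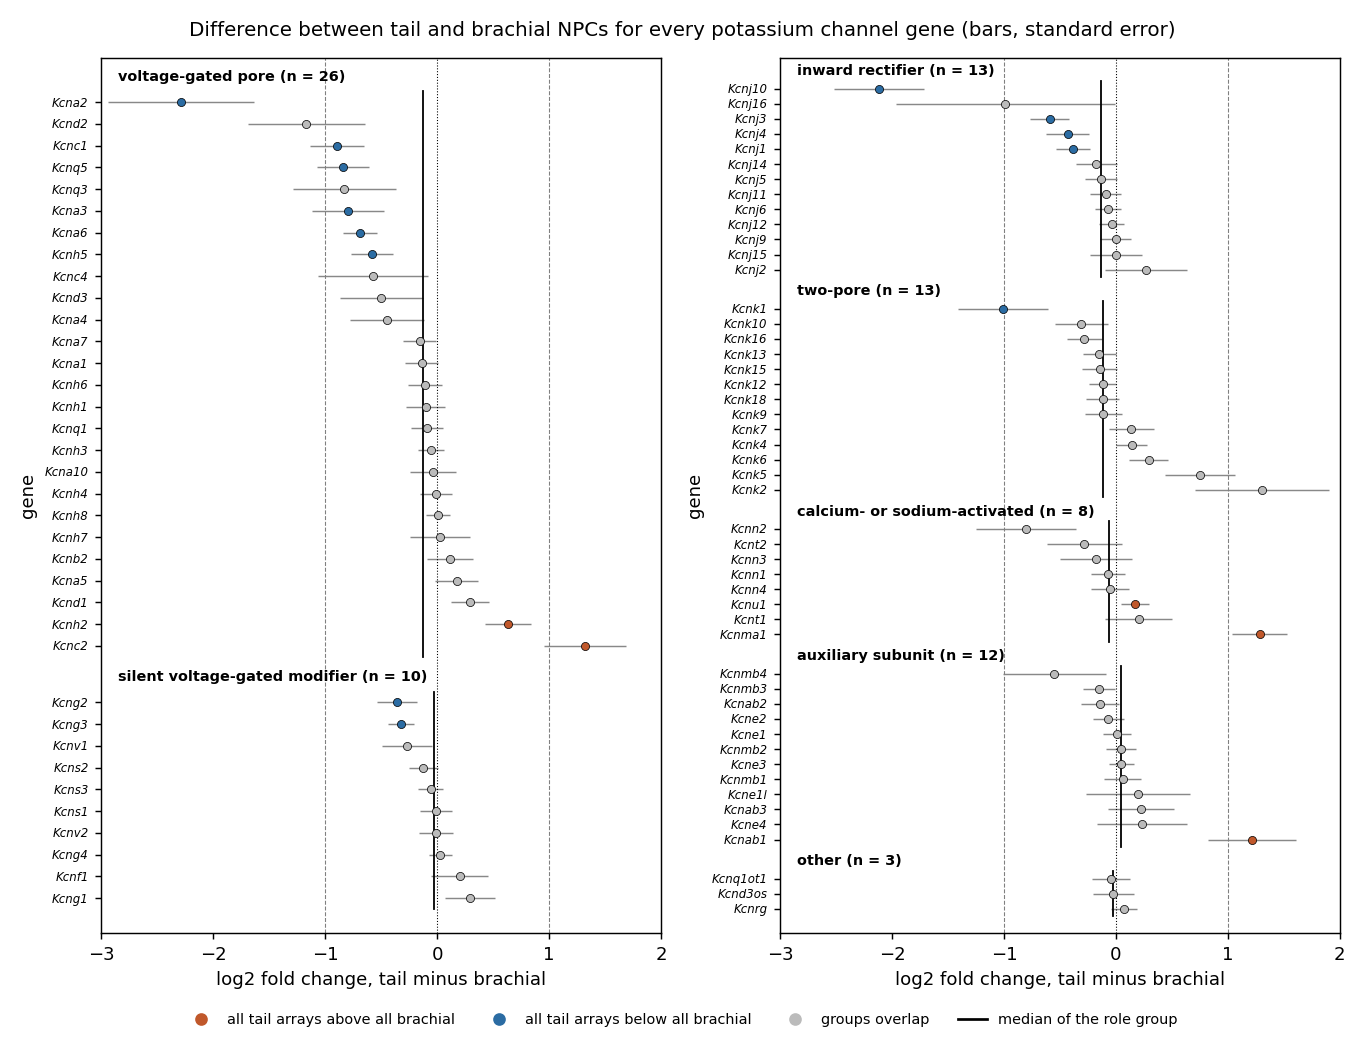
The log2 fold change (tail minus brachial, x axis) of each of the 85 potassium channel genes by role group, with bars for the standard error from the limma fit and coloured points where the groups of 3 arrays did not overlap. Most genes lie within 1 of 0 on the log2 scale, with Kcna2 (-2.29) and Kcnj10 (-2.12) farthest on the brachial side and Kcnc2 (1.32) farthest on the tail side.

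Promoter sequence is shown for the neighbours Kcna2 and Kcna3, both lower in every tail array than in every brachial array, for Kcnj10, which had the smallest unadjusted p among all members, and for Kcnma1, which had the smallest among those higher in tail NPCs. The windows run from 250 bases before to 50 after the RefSeq start in GRCm38.p6, at chr3:107101317-107101616 (plus strand), chr3:107035912-107036211 (plus strand), chr1:172340960-172341259 (plus strand) and chr14:24004156-24004455 (minus strand). They are written 5′ to 3′ on the strand of the gene. Capitals mark the GC box, GGGCGG or its reverse complement CCGCCC, which is bound by Sp1-type factors and typical of CpG-rich promoters.
Kcna2: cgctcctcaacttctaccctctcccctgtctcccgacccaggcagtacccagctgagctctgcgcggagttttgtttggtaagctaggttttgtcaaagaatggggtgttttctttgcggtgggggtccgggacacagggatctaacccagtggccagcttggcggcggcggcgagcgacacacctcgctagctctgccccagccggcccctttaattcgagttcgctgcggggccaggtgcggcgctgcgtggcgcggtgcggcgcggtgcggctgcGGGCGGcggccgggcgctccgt
Kcna3: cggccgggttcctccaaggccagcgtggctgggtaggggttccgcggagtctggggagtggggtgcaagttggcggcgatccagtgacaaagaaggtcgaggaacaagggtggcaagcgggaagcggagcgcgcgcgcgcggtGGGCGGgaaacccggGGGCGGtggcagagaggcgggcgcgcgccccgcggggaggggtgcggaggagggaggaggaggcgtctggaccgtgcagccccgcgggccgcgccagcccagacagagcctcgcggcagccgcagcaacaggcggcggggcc
Kcnj10: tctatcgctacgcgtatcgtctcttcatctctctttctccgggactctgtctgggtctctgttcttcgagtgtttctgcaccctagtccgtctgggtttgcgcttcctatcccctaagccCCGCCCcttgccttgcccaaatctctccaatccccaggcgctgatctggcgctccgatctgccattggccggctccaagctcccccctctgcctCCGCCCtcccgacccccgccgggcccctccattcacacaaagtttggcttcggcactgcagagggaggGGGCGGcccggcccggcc
Kcnma1: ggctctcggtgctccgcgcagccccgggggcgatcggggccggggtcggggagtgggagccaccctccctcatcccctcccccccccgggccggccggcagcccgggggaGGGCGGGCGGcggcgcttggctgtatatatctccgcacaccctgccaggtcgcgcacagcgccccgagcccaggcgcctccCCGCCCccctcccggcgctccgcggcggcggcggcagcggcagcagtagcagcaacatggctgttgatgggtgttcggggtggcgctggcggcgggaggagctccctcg
The Kcna2 window held 31 CpG dinucleotides and 1 GC box, that of Kcna3 held 37 and 2, that of Kcnj10 21 and 3, and that of Kcnma1 36 and 3, overlapping matches counted separately. Of 85 potassium channel genes 65 had a promoter in the RefSeq table, with 85 windows in all. A GC box was present in 48.2% of these windows and in 35.7% of all 32851 windows of this length. The E-box CANNTG, the site of neural basic helix-loop-helix factors, was present in 71.8% and 72.3%. These matches describe the letters in the window and not binding.

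Shaker-type genes (Kcna) encode subunits of channels of axons and nerve terminals. Of the 8 measured, 0 were called, 3 lay wholly lower in tail NPCs and 0 wholly higher. Kcna2, a main axonal subunit, had the largest difference of all potassium channel genes, with RMA values of 8.23, 9.21 and 8.67 in the brachial arrays, against 5.65, 5.59 and 8.01 in the tail arrays. Tail replicates 1 and 2 were far below the brachial arrays, and tail replicate 3 lay just under the lowest of them. The means were 8.70 ± 0.49 in brachial and 6.42 ± 1.38 in tail NPCs (SD, n = 3 arrays each, as for all means below), a log2 fold change of -2.29 (SE 0.65, limma adjusted p = 0.297), or 4.88-fold lower. Without tail replicate 3 it was -3.08 and was called (adjusted p = 0.0153).

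Kcna3, known from lymphocytes as well as neurons, was at 6.56, 7.04 and 6.78 in the brachial arrays and at 5.27, 6.20 and 6.51 in the tail arrays, so that the groups only just missed each other (log2 fold change -0.80, SE 0.32, limma adjusted p = 0.408, and -0.44 without tail replicate 1). Kcna6 was at 6.93, 6.58 and 6.59 in brachial and at 6.13, 5.85 and 6.05 in tail NPCs. All tail arrays lay below all brachial arrays, with a log2 fold change of -0.69 (SE 0.15, limma adjusted p = 0.215) that stayed between -0.75 and -0.58 with any 1 array left out. A second row of Kcna6 had a log2 fold change of -0.066, with overlapping groups, and the mean over both rows one of -0.38. Kcna4, which gives a fast inactivating current, was between 8.28 and 9.53 in all arrays (log2 fold change -0.45, adjusted p = 0.650, and -0.77 without brachial replicate 1). A second, dimmer row of Kcna4 had a log2 fold change of -0.10, and the mean over both rows one of -0.27. The remaining genes Kcna1, Kcna5, Kcna7 and Kcna10 had log2 fold changes between -0.16 and 0.17.

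Neighbouring Kcna genes had unlike log2 fold changes. On chromosome 3 Kcna3, Kcna2 and Kcna10 follow each other with no other coding gene between them, and their log2 fold changes were -0.80, -2.29 and -0.034. On chromosome 6 the neighbours Kcna5, Kcna1 and Kcna6 had 0.17, -0.14 and -0.69. Neighbours thus held both the largest and the smallest difference of the family in size.

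Of the 3 auxiliary subunits of these channels, 1 lay wholly higher in tail NPCs. Kcnab1, whose protein gives fast inactivation to Kcna channels, was at 4.09, 4.19 and 4.30 in brachial and at 6.03, 5.76 and 4.43 in tail NPCs. Only tail replicates 1 and 2 stood clearly above the brachial arrays. All brachial values and that of tail replicate 3 lay under the median of their array over all rows, where a value may be background. The log2 fold change was 1.21 (SE 0.39, limma adjusted p = 0.331), and without tail replicate 3 it was 1.70 and was called (adjusted p = 0.0153). Kcnab2 and Kcnab3 lay at -0.14 and 0.23 on the same scale (limma adjusted p = 0.803 and 0.822), and a second row of Kcnab3 at 0.020.

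Kcnd2, which carries the A-type current of dendrites, belongs to the Shal-type subfamily. It was at 8.45, 9.52 and 9.56 in the brachial arrays and at 7.16, 7.79 and 9.07 in the tail arrays. Tail replicate 3 was above brachial replicate 1, so the groups overlapped, and the log2 fold change was -1.17 (SE 0.52, limma adjusted p = 0.450). It was -1.70 without tail replicate 3 and -0.74 without tail replicate 1. Kcnd3 showed the same order among tail arrays (7.15, 7.63 and 8.68, against 8.13 to 8.54 in brachial NPCs, log2 fold change -0.50, adjusted p = 0.656, and -0.93 without tail replicate 3). Kcnd1 had a log2 fold change of 0.29 (adjusted p = 0.544), and the antisense transcript Kcnd3os one of -0.025. Dpp6, which encodes a partner of Kcnd channels, was at 8.38, 8.17 and 8.68 in brachial and at 6.02, 7.16 and 8.20 in tail NPCs (log2 fold change -1.29, limma adjusted p = 0.400). As for Kcnd2, tail replicate 1 was lowest and tail replicate 3 reached the brachial level.

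Within the Shaw-type subfamily (Kcnc), whose channels let neurons fire fast, 1 of 3 genes lay wholly lower and 1 wholly higher in tail NPCs. Kcnc1 was at 6.07, 6.78 and 6.69 in brachial and at 5.56, 5.34 and 5.95 in tail NPCs, a log2 fold change of -0.90 (SE 0.24, limma adjusted p = 0.277). Kcnc2 was at 3.72, 3.88 and 3.68 in brachial and at 4.41, 4.87 and 5.96 in tail NPCs. All brachial values and that of tail replicate 1 lay under the median of their array over all rows, where a value may be background. This gave a log2 fold change of 1.32 (SE 0.37, limma adjusted p = 0.286). Kcnc2 was highest in tail replicate 3, and without that array the log2 fold change was 0.88. Kcnc4 had a log2 fold change of -0.57 with overlapping groups (adjusted p = 0.705). It rested on 7.52 in brachial replicate 2, and without this array the log2 fold change was -0.046.

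**Figure D2:**
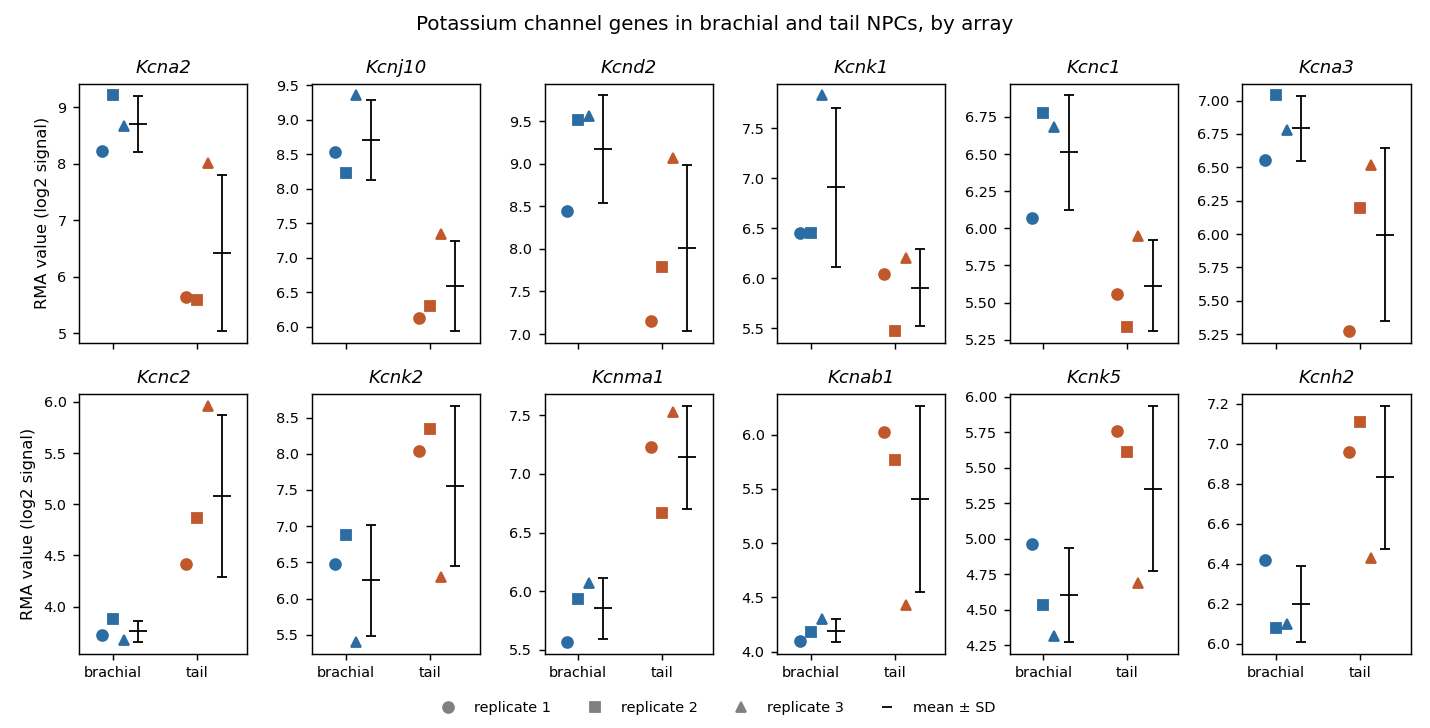
RMA values (log2 signal, y axis, with a scale for each gene) of 12 potassium channel genes in the 3 brachial and 3 tail arrays, with a marker shape for each replicate number and bars for mean ± SD. Tail replicate 3 (triangle) lies nearest to the brachial arrays for Kcna2, Kcnj10, Kcnab1 and Kcnh2, and farthest from them for Kcnc2 and Kcnma1.

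Kcnq genes are known for the M current that damps repeated firing in neurons. Of 4 measured, the noncoding Kcnq1ot1 included, 0 were called and 1 lay wholly lower in tail NPCs. Kcnq5 was at 5.55, 6.12 and 6.42 in brachial and at 5.18, 5.04 and 5.35 in tail NPCs, with groups that did not overlap (log2 fold change -0.84, SE 0.23, limma adjusted p = 0.281). Its second, dimmer row had a log2 fold change of -0.037, and the mean over both rows one of -0.44. Kcnq3 had a similar log2 fold change of -0.83 but overlapping groups (adjusted p = 0.537), with 7.11 in brachial replicate 2 and 4.80 in tail replicate 1 as its extremes, and was at -0.39 without brachial replicate 2. Kcnq1 and the noncoding Kcnq1ot1, which is transcribed within the Kcnq1 gene, had log2 fold changes of -0.088 and -0.043.

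Of 8 ether-a-go-go type genes (Kcnh), Kcnh2 and Kcnh5 had groups that did not overlap, in opposite directions. Kcnh2, the subunit best known for cardiac repolarization, was at 6.42, 6.08 and 6.10 in brachial and at 6.96, 7.11 and 6.43 in tail NPCs. The lowest tail array was only just above the highest brachial array, and the log2 fold change was 0.63 (SE 0.21, limma adjusted p = 0.331). Kcnh5 had a log2 fold change of -0.58 (SE 0.19, limma adjusted p = 0.333), at values between 4.22 and 5.32, and -0.39 without brachial replicate 1. The other Kcnh genes lay between -0.11 and 0.023.

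Of the 10 silent subunits, which change the channels of Kcnb partners, Kcng2 and Kcng3 lay wholly lower in tail NPCs. The log2 fold changes were small, -0.36 and -0.32 (limma adjusted p = 0.500 and 0.377). Kcng1 had one of 0.29 with overlapping groups, and over all silent subunits the range was -0.36 to 0.29. Kcnb2 itself had a log2 fold change of 0.12.

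Among inward rectifiers Kcnj10 stood out. It encodes the main potassium-buffering channel of astrocytes and the oligodendrocyte lineage, and was at 8.53, 8.23 and 9.36 in brachial and at 6.13, 6.30 and 7.34 in tail NPCs. The highest tail array was thus well below the lowest brachial array. The means were 8.70 ± 0.58 and 6.59 ± 0.66, a log2 fold change of -2.12 (SE 0.40, limma adjusted p = 0.181, unadjusted p = 0.00123), or 4.34-fold lower in tail NPCs. It ranged from -2.49 to -1.79 with any 1 array left out, and was called without tail replicate 3 (adjusted p = 0.0333). Kcnj9, the next gene on chromosome 1, was between 4.96 and 5.32 in all arrays, with a log2 fold change of -0.0013.

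Kcnj16 encodes a subunit that pairs with the Kcnj10 product and was not lower in all tail arrays. It was at 6.19, 8.45 and 8.44 in the brachial arrays and at 4.86, 6.83 and 8.43 in the tail arrays. Both groups held high and low arrays, and tail replicate 3 was level with brachial replicates 2 and 3. The log2 fold change of -0.99 (SE 0.98, limma adjusted p = 0.753) was -0.062 without tail replicate 1 and -1.74 without brachial replicate 1. Kcnj2, its neighbour on chromosome 11 and the gene of a strong rectifier of muscle and vessels, was at 5.26, 4.93 and 3.78 in the tail arrays and between 4.18 and 4.58 in brachial NPCs (log2 fold change 0.27, adjusted p = 0.831). Its sign depended on tail replicate 1, without which it was -0.033. Kcnj3, a subunit of channels opened by G proteins, Kcnj4 and the renal channel gene Kcnj1 lay wholly lower in tail NPCs, with log2 fold changes of -0.59, -0.43 and -0.38 (limma adjusted p = 0.297, 0.443 and 0.400). These 3 genes were between 3.71 and 5.58 in all arrays, and a second row of Kcnj3 had a log2 fold change of -0.12 with overlapping groups (-0.35 for the mean over both rows). The other 6 inward rectifiers were between -0.17 and 0.00051.

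Marker genes of glia and mesenchyme were read on the same arrays. The mean RMA value of 10 astrocyte and radial glia genes was 8.99, 10.07 and 9.22 in the brachial arrays, against 7.90, 8.12 and 9.50 in the tail arrays, and limma called 0 of them (4 lower and 0 higher at an unadjusted p under 0.05). Aldh1l1, an astrocyte enzyme, had the smallest p of the list, with a log2 fold change of -2.19 (adjusted p = 0.0975). Of the 10 genes 8 had a log2 fold change below 0, and Gfap and Gja1 had 0.21 and 0.086. Tail replicate 3 was the highest tail array for this list, as it was for Kcnj16, Kcna2, Kcnd2 and Kcnj10. For the list it lay above brachial replicates 1 and 3. For Kcna2 and Kcnj10 it stayed below every brachial array (8.01 and 7.34). So it did for the list genes Slc1a3, Fabp7, Aldh1l1 and Aldoc (11.64, 12.13, 7.17 and 11.10). For others of the list, such as Gfap and Aqp4 (8.93 and 9.20), it lay above brachial replicates 1 and 3. The 7 measured oligodendrocyte precursor genes had means of 9.03 to 9.12 in brachial and of 7.85, 7.59 and 8.75 in tail NPCs, with 0 called (2 lower at an unadjusted p under 0.05). The 10 mesenchyme genes had means of 9.05, 5.43 and 5.10 in the brachial arrays and of 10.41, 10.44 and 9.14 in the tail arrays, with 0 called and 10 of 10 higher at an unadjusted p under 0.05. Brachial replicate 1 was thus at the level of tail replicate 3 for mesenchyme. Their median log2 fold change of 3.54 was 4.86 without brachial replicate 1. Among the brachial arrays, this one was the lowest for Kcnab1 and Kcnma1 (4.09 and 5.57), lay between the others for Kcnc2 and Kcnk2 (3.72 and 6.48), and was the highest for Kcnk5, Kcnh2 and Lrrc55 (4.97, 6.42 and 6.43). The part of these cells in the differences of the potassium channel genes was not tested, and fewer cells of a type cannot be told apart from less RNA per cell in such samples.

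Among lists of other cell types, limma called 0 of 10 neuronal genes (3 lower and 0 higher at an unadjusted p under 0.05, median log2 fold change -0.29), with means between 6.57 and 7.14 in brachial and between 6.24 and 6.61 in tail NPCs. The fit called 0 of 7 skeletal muscle genes (0 at an unadjusted p under 0.05 in either direction), whose mean was 6.47 in brachial replicate 1 and 4.99 to 5.29 in the other 5 arrays. Of 7 genes of endothelium and pericytes 0 were called (1 higher at an unadjusted p under 0.05, median 0.11), and of 6 genes of microglia and macrophages also 0 (0 at an unadjusted p under 0.05, median -0.0082).

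**Figure D3:**
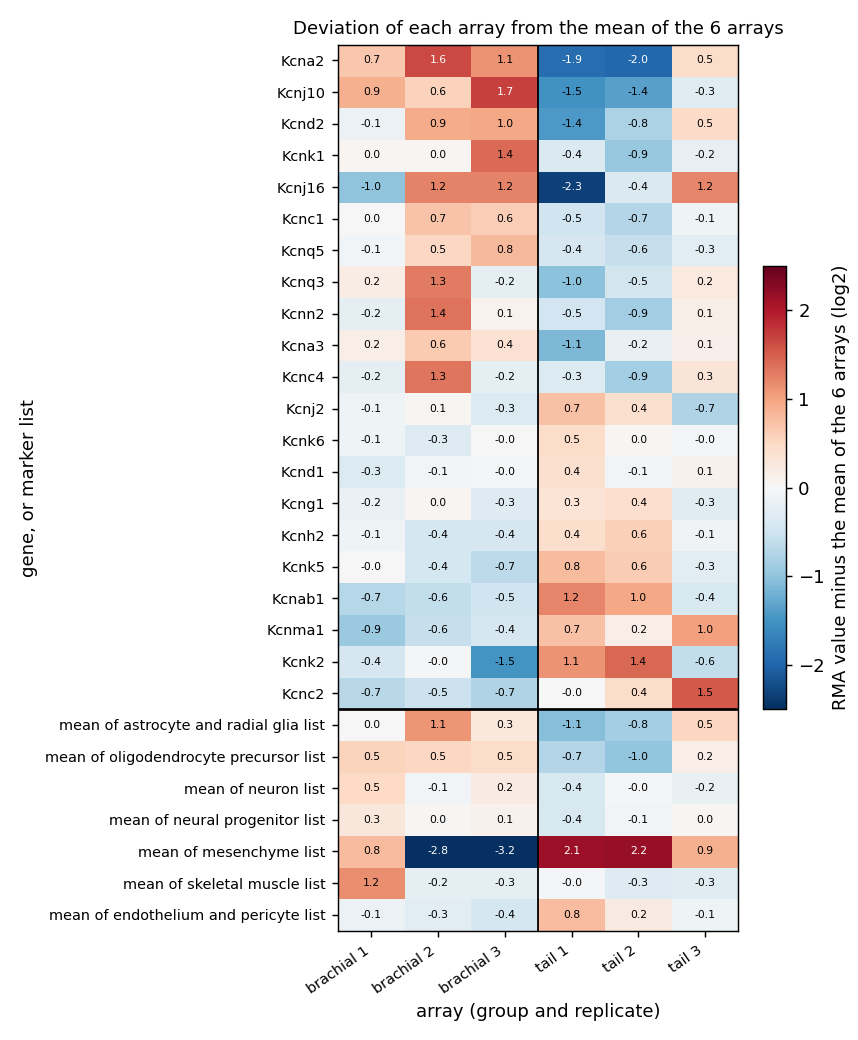
Each array's RMA value minus the mean of the 6 arrays (log2, colour and printed number) for the 21 potassium channel genes with the largest differences or ranges, sorted by log2 fold change, and for the mean of 7 marker lists. Tail replicates 1 and 2 are blue for Kcna2, Kcnj10 and the glial lists and red for Kcnab1, Kcnk2 and mesenchyme, and tail replicate 3 lies between the groups for many of the genes.

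Leak channel genes had means apart by 2-fold or more for 1 gene in each direction. Kcnk1, whose channel helps to set the resting potential of astrocytes among other cells, was at 6.45, 6.45 and 7.83 in brachial and at 6.04, 5.47 and 6.20 in tail NPCs, a log2 fold change of -1.01 (SE 0.40, limma adjusted p = 0.406). Without the high brachial replicate 3 it was -0.55. Kcnk2, which encodes a channel opened by membrane stretch, was at 6.48, 6.88 and 5.40 in brachial and at 8.03, 8.34 and 6.30 in tail NPCs. Tail replicates 1 and 2 were above all brachial arrays and tail replicate 3 was not (log2 fold change 1.31, SE 0.60, limma adjusted p = 0.461). Without tail replicate 3 the log2 fold change was 1.94 (adjusted p = 0.0994), and without brachial replicate 3 it was 0.88.

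Kcnk5, an alkali-sensitive leak channel, repeated this order with 5.76 and 5.61 in tail replicates 1 and 2 and 4.69 in tail replicate 3, against 4.97, 4.53 and 4.32 in brachial NPCs (log2 fold change 0.75, SE 0.31, limma adjusted p = 0.419). Its neighbour Kcnk16 on chromosome 14 had a log2 fold change of -0.28. Kcnk6 had one of 0.29 (adjusted p = 0.562), and the remaining 8 leak channel genes lay between -0.31 and 0.14.

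Kcnma1, the pore of the large-conductance channel that opens with calcium and depolarization, was higher in every tail array. It was at 5.57, 5.93 and 6.07 in brachial and at 7.23, 6.67 and 7.53 in tail NPCs, with means of 5.86 ± 0.26 and 7.14 ± 0.44. The groups were clearly apart. The log2 fold change was 1.28 (SE 0.25, limma adjusted p = 0.182, unadjusted p = 0.00135), or 2.44-fold, and between 1.09 and 1.52 with any 1 array left out. A second, dimmer row of Kcnma1 had a log2 fold change of -0.038 with overlapping groups, and the mean over both rows had one of 0.62 (limma adjusted p = 0.311), which is under 2-fold.

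Among partners of this pore, the 4 Kcnmb genes and Lrrc55 had overlapping groups. Kcnmb4, the neuronal beta subunit, was at 8.40, 7.23 and 6.77 in brachial and at 6.32, 7.46 and 6.98 in tail NPCs, a log2 fold change of -0.55 (limma adjusted p = 0.699, and -0.083 without brachial replicate 1). Its second row had a log2 fold change of -0.16, and the mean over both rows one of -0.36. Kcnmb1, Kcnmb2 and Kcnmb3 lay between -0.15 and 0.062. Lrrc55, which encodes a gamma subunit of the channel, was at 6.43, 4.98 and 4.31 in brachial and at 7.49, 6.42 and 6.51 in tail NPCs (log2 fold change 1.57, adjusted p = 0.361), where brachial replicate 1 was level with the lowest tail array. The other Lrrc genes of the partner list did not share this direction. Lrrc52 had a log2 fold change of -0.53 (limma adjusted p = 0.362) at values between 3.84 and 4.77, with overlapping groups. Lrrc26 and Lrrc38 had log2 fold changes of 0.0046 and 0.021. Kcnn2, a small-conductance calcium-activated channel, was at 6.63 in brachial replicate 2 and between 4.40 and 5.41 in the other 5 arrays. Its log2 fold change of -0.80 (adjusted p = 0.541) was -0.32 without brachial replicate 2. Kcnu1, known from sperm, lay wholly higher in tail NPCs by 0.17 on the log2 scale, but at values between 3.00 and 3.35. The 5 Kcne genes had log2 fold changes between -0.066 and 0.23, and the regulator Kcnrg one of 0.068.

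For the 15 measured channel partners outside the Kcn symbols there were 0 calls (an unadjusted p under 0.05 for 2 higher and 2 lower genes, median log2 fold change 0.0046). Cntnap1, an axonal adhesion gene of the regions beside the nodes of Ranvier, had a log2 fold change of 0.90 with groups that did not overlap (adjusted p = 0.182). Of 16 measured sodium, calcium and cyclic nucleotide-gated channel genes 0 were called (an unadjusted p under 0.05 for 1 higher and 4 lower genes, median -0.15). Cacna1g, a low-threshold calcium channel, had a log2 fold change of 2.20 (adjusted p = 0.243), while the sodium channel genes Scn3b and Scn2a had -1.50 and -1.23 (adjusted p = 0.182 and 0.254). Scn2a was between 2.78 and 4.75, under the median of each array over all rows, where a value may be background. Cacna1g was at 5.89, 4.21 and 4.51 in brachial and at 7.75, 7.17 and 6.29 in tail NPCs. Its values in brachial replicates 2 and 3 also lay under the median of their array. Of 6 measured genes of the sodium-potassium pump and of cation-chloride cotransporters 0 were called in either direction (0 at an unadjusted p under 0.05), with Atp1b2 and Atp1b1, beta subunits of the pump, at -1.03 and -1.14 (adjusted p = 0.459 and 0.534).

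Among the 13 genes that were wholly lower in tail NPCs tail replicate 3 lay nearest to the brachial arrays for 8 (61.5%), and for 51% of the 2077 such genes overall. Among the 5 that were wholly higher it was nearest for 2, Kcnab1 and Kcnh2, against 51.9% of 1527 genes. With this array left out, limma called Kcnab1 higher and Kcna2 and Kcnj10 lower in tail NPCs, 1 and 2 of 85 genes, where 0.622% of all genes were called higher and 0.577% lower. Without any 1 of the other 5 arrays it called 0 potassium channel genes.

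**Figure D4:**
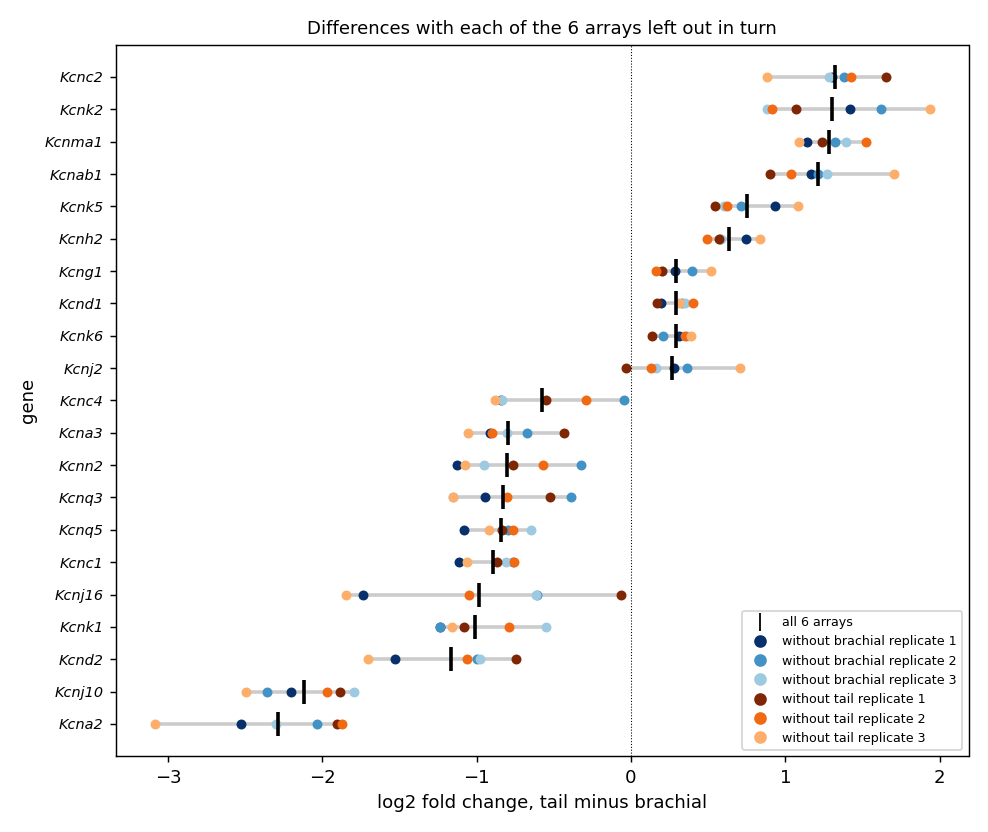
The log2 fold change (tail minus brachial, x axis) of 21 potassium channel genes over all 6 arrays (black tick) and with each array left out in turn (coloured points). Kcna2, Kcnj10 and Kcnma1 stay past 2-fold throughout (-3.08 to -1.87, -2.49 to -1.79 and 1.09 to 1.52), whereas Kcnj16 spans -1.85 to -0.062 and Kcnj2 crosses 0.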

How the data were processed

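Total RNA of 3 brachial and 3 tail NPC samples had been hybridized to 1 whole-transcript array each. The deposited values are log2 signals, 1 per row and array, which the authors made from the scanner files by gene-level RMA in Affymetrix Expression Console (versions not given in the sources used here). Background subtraction, quantile normalization and the summary over probes are therefore in the values, and differences in total RNA cannot be read from them. By its name in the methods the array is a human one, but its annotation lists mouse genes. Of 41345 rows, 23521 carried 1 symbol, 1820 several and 16004 none. All 85 members matched the gene table of GRCm38.p6 by Entrez number, with 0 different symbols. The number of columns of other samples was 0.

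A gene with several rows, as 7 members were, was taken at the row with the highest mean. The comparison used lmFit and eBayes of limma 3.58.1 (R 4.3.3) on these values, over 22180 genes, 3 arrays a group, with no block and Benjamini-Hochberg adjustment. For the arrays, the methods state a fold threshold and no test of their own. The fit was tested on simulated data. The number of arrays limits the precision.

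The members and all lists were chosen with earlier results of these data known, the tail and brachial gene table of the study included. Named members are the top 10 on each side by log2 fold change and the 10 with the largest range over the arrays, and of other lists up to 3 genes with the smallest p in each direction. Members named for groups that did not overlap, and partners or neighbours of named members, were chosen after their values were seen. The lists were those of neural progenitors, astrocytes and radial glia, oligodendrocyte precursors, neurons, mesenchyme, skeletal muscle, endothelium and pericytes, microglia and macrophages, channel partners, pumps and cotransporters, other ion channels and 8 measured housekeeping genes (0 called, 0 at an unadjusted p under 0.05 in either direction, median log2 fold change 0.084). Plots were drawn with Python 3.11.15. Alternatives were the replicate number as a block, trend and robust settings, array weights, the methods' t-test, a filter on dim rows, other treatments of rows, other scalings, a ratio of linear means and each array left out.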

Additional observations from a re-analysis of the deposited data

How the results depend on the processing

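Over 32 named potassium channel genes and 472 alternative values, 467 kept their direction and their side of the threshold, 4 were newly called and 1 turned its direction. The sign change was that of Kcnj2, which lay between -0.033 and 0.71 with 1 array left out. No label ties same-numbered arrays together, so the number was not treated as a pairing. Deviations from the group means correlated at 0.24, -0.12 and 0.21 for same-numbered arrays. For arrays with unlike numbers the correlations lay between -0.33 and 0.15. These values do not settle whether the arrays were paired. With the replicate block, limma called 1 gene lower (Kcnj10, adjusted p = 0.0237) and 0 higher, and gave 11 lower and 6 higher at an unadjusted p under 0.05. The methods' t-test gave 6 lower and 2 higher at that threshold. Shares of all genes under the block or the t-test were not counted, so the call and the counts there stand without them. Among genes at or above the median over all rows, which kept 47 of the 85, an unadjusted p under 0.05 was reached by 2 higher and 8 lower genes, a 2-fold difference by 2 and 4, and separate groups by 2 and 9. Their median log2 fold change was -0.15, and the cause of this shift was not tested. Centring on housekeeping genes left 20 genes wholly lower in tail NPCs and a median of -0.17, where the median of all genes went from -0.028 to -0.12. Shares of all genes were not counted after the filter or the centring, so these counts cannot be set against them. With 1 array left out, the called genes numbered 0 to 1 higher and 0 to 2 lower, those at an unadjusted p under 0.05 were 2 to 8 higher and 6 to 12 lower, those past 2-fold 3 to 4 higher and 3 to 9 lower, and those with separate groups 6 to 12 higher (8, 9 and 12 without brachial replicate 1, brachial replicate 3 and tail replicate 3) and 13 to 22 lower (22, 21 and 20 without brachial replicate 1, tail replicate 1 and tail replicate 3), in part because fewer arrays overlap less often. The median then lay between -0.096 and -0.055. Of all genes, limma called 0.473% without brachial replicate 1 and 1.2% without tail replicate 3. For the other counts with 1 array left out, the shares of all genes were not counted, so these counts cannot be set against them. The 4 new calls were Kcnj10 with the block and Kcna2, Kcnab1 and Kcnj10 without tail replicate 3, and no other setting changed a call of a named gene.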
